A study of Mus musculus with 17 samples.

Results

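The genes described here belong to the ATF4 arm of the integrated stress response, and they were followed in splenic dendritic cells that had met debris of apoptotic or necroptotic tumor cells. The set holds 10 of the 31091 genes in the count table: Atf4, Atf5, Atf3, Ddit3, Ddit4, Sesn2, Chac1, Trib3, Nupr1 and Ppp1r15a. They were listed by name as genes of this pathway, and were chosen by the measured difference between necroptotic and apoptotic debris as well, since Atf3, Ddit4 and Chac1 stood higher with the former. The difference between both kinds of debris is therefore given for these 10 genes as a description with no test. All 10 were found by their Ensembl identifier, and all 10 had enough counts to be tested in both cell types.

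The dendritic cells came from pooled spleens of 8-week-old female C57BL/6JRj mice that carried a subcutaneous B16-FLT3L tumor, a melanoma that secretes the growth factor FLT3L and thereby expands dendritic cells. CD11c+ spleen cells were kept for 6 h with GM-CSF and the medium of TC-1 cells, and were then sorted into cDC1s (XCR1+ CD8α+) and cDC2s (SIRPα+ CD11b+). TC-1 is a C57BL/6 lung epithelial line transformed by HPV16 E6 and E7 and activated H-ras. The medium, with all dead cells and debris in it, was that of live TC-1 cells (WT), of TC-1-iBimS cells dying by apoptosis (BimS) or of TC-1-iRIPK3 cells dying by necroptosis (RIPK3). The inducible lines were clones, and the inducer cumate was given to all 3 lines, so the WT groups had met it too. There were 3 samples of cDC1s with each medium, 3 of cDC2s with WT medium, 3 with BimS medium and 2 with RIPK3 medium. No source used here ties each sample to its own mice, so p-values measure the spread between these samples, which may in part be technical.

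In the integrated stress response, kinases that sense amino acid shortage, misfolded proteins, heme shortage or double-stranded RNA phosphorylate the translation factor eIF2. General protein synthesis then falls, while the mRNA of Atf4 is translated better. The transcription factor ATF4 switches on genes of amino acid supply, redox defense and, when stress lasts, cell death. Much of this control acts on translation, so the level of Atf4 mRNA is not a measure of ATF4 protein. Phagocytes that digest dead cells meet several of these stresses, and Atf3 is also known in macrophages and dendritic cells as a brake on inflammatory genes.

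ATF4 binds the C/EBP-ATF response element (CARE), searched here as TGATGNAA on both strands of the 300 bases before each main start site. Of 17437 protein-coding promoters 3.1% held these letters, and 4 of the 10 members did, namely Atf3, Chac1, Ddit3 and Sesn2. The cAMP response element TGACGTCA, which ATF3 and related factors bind, stood in 1.89% of promoters and in 1 member, Ppp1r15a. The sequences below are shown because they hold these letters, with the match in capitals, read 5′ to 3′ on the strand of the gene from GRCm39. The windows of Atf3 (chr1:190915538-190915837, minus strand) and Sesn2 (chr4:132237816-132238115, minus strand) overlap no annotated exon and are given whole. In Atf3 the match lies 103 to 96 bases before the start, in Sesn2 256 to 249.
Atf3: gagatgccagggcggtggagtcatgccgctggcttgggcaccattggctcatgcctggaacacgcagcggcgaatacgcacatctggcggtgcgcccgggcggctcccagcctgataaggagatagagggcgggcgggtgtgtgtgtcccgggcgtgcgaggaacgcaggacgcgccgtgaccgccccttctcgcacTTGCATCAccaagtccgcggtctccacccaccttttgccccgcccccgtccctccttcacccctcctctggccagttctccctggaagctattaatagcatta
Sesn2: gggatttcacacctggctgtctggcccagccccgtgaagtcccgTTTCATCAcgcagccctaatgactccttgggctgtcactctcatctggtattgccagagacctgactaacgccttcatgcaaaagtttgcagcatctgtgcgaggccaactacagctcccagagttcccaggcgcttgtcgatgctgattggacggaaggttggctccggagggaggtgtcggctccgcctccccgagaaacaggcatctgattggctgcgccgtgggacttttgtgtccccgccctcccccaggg

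Of Chac1 (chr2:119181519-119181548, plus strand), Ddit3 (chr10:127126350-127126379, plus strand) and Ppp1r15a (chr7:45175693-45175722, minus strand), whose windows overlap exons of other transcripts, 30 bases around the match are given.
Chac1: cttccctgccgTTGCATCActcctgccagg
Ddit3: gttgccaaacaTTGCATCAtccccgccccc
Ppp1r15a: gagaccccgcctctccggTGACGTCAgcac
In Atf3, Chac1 and Ddit3 the same 8 letters, TTGCATCA, make up the match. They begin 159 bases before the start of Chac1 and 199 before that of Ddit3, and the element of Ppp1r15a begins 12 bases before its start. Ddit4, Trib3, Nupr1, Atf4 and Atf5 held none of the letters searched for CARE in this window. The letters TGANTCA of an AP-1 site stood in 6.35% of promoters and in 1 member, Ddit3, 140 to 134 bases before its start. The consensus of the glucocorticoid response element stood in 0.373% and in 0 members.

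The samples held 16095159 to 21645289 counts on genes (median 18986002). With WT medium, 9 of 9 cDC1 markers were higher in cDC1s and 9 of 9 cDC2 markers in cDC2s. TC-1 cells are mouse cells, so RNA carried over from them would count toward the same genes. A list of 17 genes of adherent epithelial tumor cells, of which 16 were in the table, summed to between 10.3 and 15.5 CPM (counts per 1 M counts, after TMM scaling) in the cDC1 samples. Its sums in cDC2s were 38.4 to 46.9 with WT, 27.6 to 40.6 with BimS and 28.7 to 32.7 CPM with RIPK3 medium, and Krt8, Cdh2 and Ccn1 had 3 counts or fewer in every group. The other genes of the list exceeded 3 counts in some group and made up nearly all of these sums. In the 4 comparisons of debris with WT medium, 1 gene of the list was called, in cDC1s with RIPK3 debris. Markers of B cells, of T and NK cells and of neutrophils summed to at most 5.02 CPM in every sample, those of macrophages and monocytes to between 58.4 and 95.8 CPM, and those of plasmacytoid dendritic cells to between 54.6 and 66.1 CPM in cDC1s and between 174 and 217 CPM in cDC2s. Against WT medium, 3 cDC1 markers were higher and 3 lower in cDC1s with either debris, and of the cDC2 markers 1 was higher and 1 lower with BimS and 1 higher and 3 lower with RIPK3 debris in cDC2s. Of the macrophage and monocyte markers 0 were higher and 1 lower with BimS and 1 higher and 1 lower with RIPK3 debris in cDC1s, and in cDC2s 1 was lower, with RIPK3 debris. Of the plasmacytoid markers 1 was lower with each debris in cDC1s and 1 with RIPK3 debris in cDC2s, and of the T and NK cell markers 1 was higher in cDC1s and 1 lower in cDC2s, both with BimS debris. Their part in the results below was not tested. In bulk samples, fewer cells of a type and less RNA per cell cannot be told apart.

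With WT medium, Atf4 had by far the highest level per transcript length in both cell types, and the lowest was that of Ddit4 in cDC1s and of Chac1 in cDC2s. Atf4 stood at 389 CPM per kb of its main transcript in cDC1s and 377 in cDC2s. The next in cDC1s were Ppp1r15a at 57.3, Sesn2 at 43.1, Atf5 at 41.3, Atf3 at 36.5 and Ddit3 at 34.9 CPM per kb. Nupr1 at 25.6, Trib3 at 23.5, Chac1 at 14.4 and Ddit4 at 4.91 CPM per kb followed. In cDC2s the order below Atf4 was Ppp1r15a at 72.9, Nupr1 at 66.8, Atf5 at 51, Ddit3 at 39 and Sesn2 at 26.2 CPM per kb, and then Ddit4 at 23.8, Trib3 at 17, Atf3 at 13 and Chac1 at 8.5.

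Without debris the cell types already differed in most of these genes. A fit over all 17 samples called 8 of the 10 between cDC1s and cDC2s with WT medium, 4 higher in each, beside 46.2% of the 19082 genes tested (22.5% higher in cDC1s and 23.7% in cDC2s). Atf3 (log2 fold change 1.49, SE 0.091, adjusted p = 3.66e-14), Chac1 (0.76), Sesn2 (0.72, SE 0.0825, adjusted p = 1.85e-08) and Trib3 (0.47) were higher in cDC1s. Ddit4 (-2.27), Nupr1 (-1.38, SE 0.131, adjusted p = 2.22e-08), Ppp1r15a (-0.35, adjusted p = 1.06e-05) and Atf5 (-0.30) were lower there. Atf4 and Ddit3 were not called. The call of Trib3 was lost without WT replicate 1 of the cDC2s (adjusted p = 0.0563) or WT replicate 2 of the cDC1s (0.0552), and Ddit3 was called, at -0.25, without WT replicate 1 of the cDC2s (0.0129). With limma on unscaled log2 counts the calls of Atf5 (-0.14, adjusted p = 0.356) and Ppp1r15a (-0.19, adjusted p = 0.164) were lost.

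**Figure D1:**
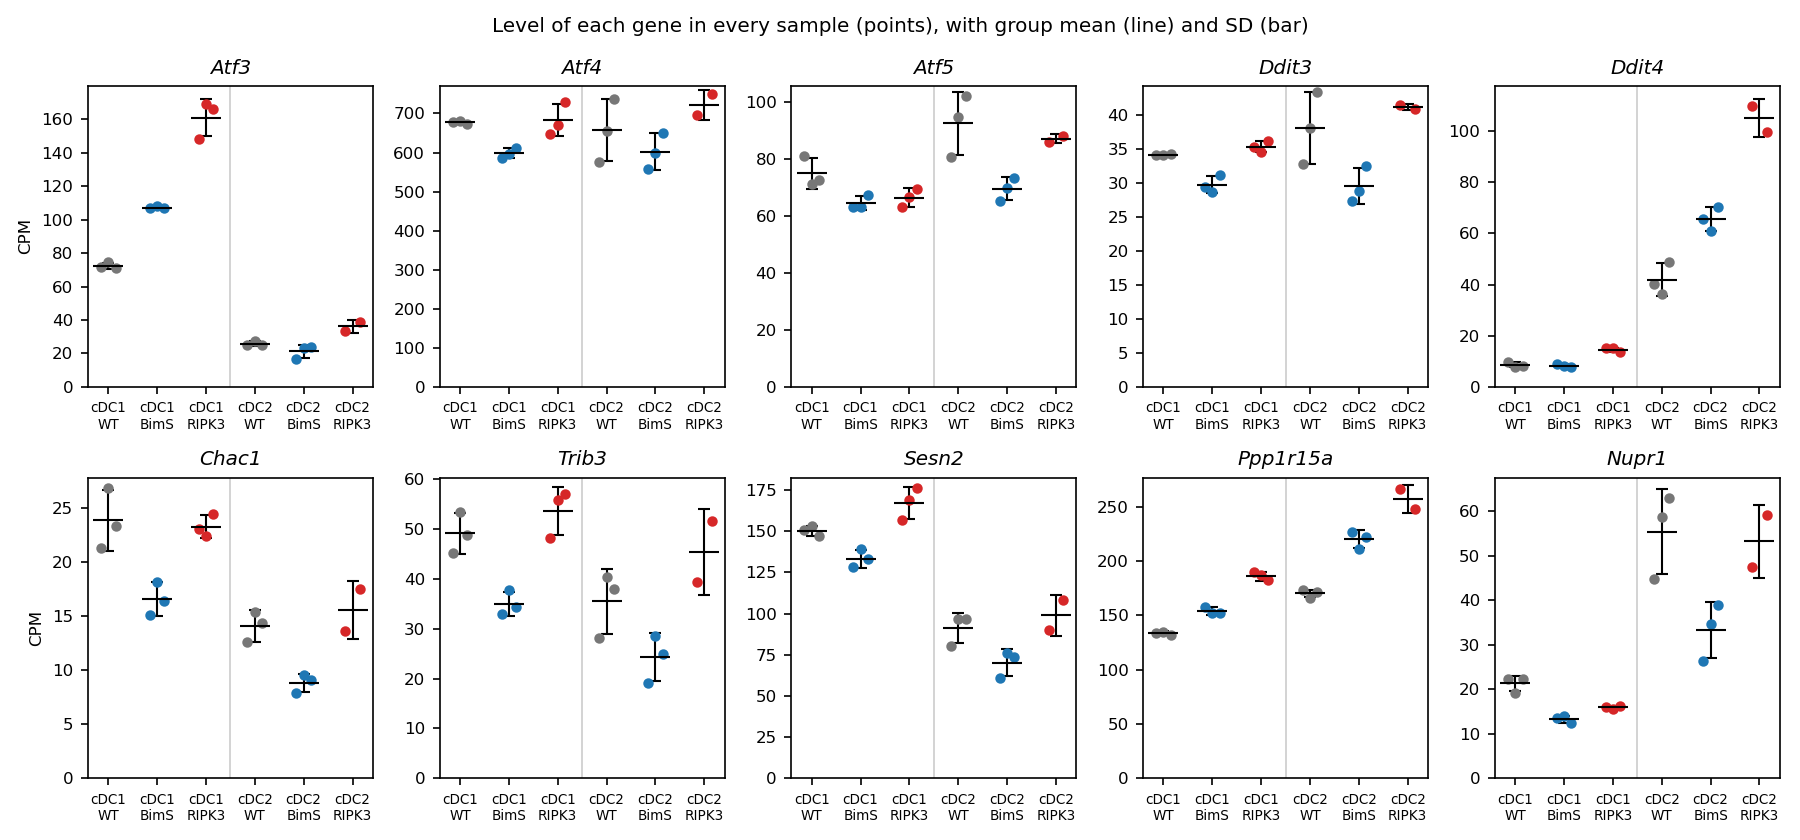
Level of each of the 10 genes in CPM (y axis, from 0) in each of the 17 samples, by cell type and medium (x axis), with points for samples, a line for the group mean and a bar for the SD. Atf3 was highest in cDC1s with RIPK3 medium (148 to 169 CPM) and Ddit4 in cDC2s with RIPK3 medium (99.7 and 110 CPM).

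With apoptotic debris more of these genes were called lower than higher in both cell types, and with necroptotic debris more were called higher than lower. The split in cDC2s with apoptotic debris depended on single samples. Against WT medium, 7 of the 10 genes were lower and 2 higher with BimS debris in cDC1s, where 13.2% of all 19513 genes tested were called (5.89% lower and 7.31% higher). In cDC2s 5 were lower and 2 higher, beside 7.01% of 19239 genes (3.21% lower and 3.8% higher). Without WT replicate 2 of the cDC2s, Chac1 alone was still called lower there, against Ddit4 and Ppp1r15a higher, while the calls over all genes fell from 1349 to 783. Without WT replicate 3 Atf5 and Chac1 were still called lower, and without BimS replicate 1 Chac1 and Nupr1, with Ddit4 and Ppp1r15a higher in both runs. With the replicate number as a block all 10 were called there, 8 lower and 2 higher, beside 21.3% of genes (10.3% lower and 11% higher). With RIPK3 debris 4 were higher and 2 lower in cDC1s, beside 16.5% of genes (8.34% higher and 8.19% lower). In cDC2s 3 were higher and 0 lower, beside 7.21% of genes (3.93% higher and 3.28% lower), and with the block 5 were higher and 0 lower, beside 21.4% of genes (10% higher and 11.4% lower). Without the block, called in the same direction in both cell types were Atf5, Ddit3, Chac1, Sesn2 and Nupr1 as lower with BimS debris, Ppp1r15a as higher with BimS debris, and Atf3, Ddit4 and Ppp1r15a as higher with RIPK3 debris.

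The comparisons of both debris types within a cell type share their WT samples, and they share the debris samples with the contrast by which Atf3, Ddit4 and Chac1 were picked. Their values against WT medium are thus no independent support for that contrast. In cDC2s the WT and BimS samples of replicate 1 were the lowest of their group for Atf4, Atf5, Ddit3, Chac1, Trib3, Sesn2 and Nupr1. The group with RIPK3 medium has replicates 1 and 2 alone, so fits with the replicate number as a block are given where they changed a call. In cDC2s the block leaves few samples to measure the spread of a gene, and edgeR shares the spread across genes. The very small p-values of that fit are thus no measure of the spread of single genes. Over all genes it raised the calls from 1349 to 4103 with BimS and from 1387 to 4126 with RIPK3 debris. With the spread estimated from all 17 samples in place of the cDC1s alone, the calls in cDC1s of Atf4 (0.138), Atf5 (0.0802), Ddit3 (0.175) and Sesn2 (0.225) with BimS and of Atf5 (0.16), Sesn2 (0.279) and Nupr1 (0.0625) with RIPK3 debris were lost. This left 3 lower and 2 higher with BimS and 0 lower and 3 higher with RIPK3 debris in cDC1s, while in cDC2s it gave 6 lower and 2 higher and 0 lower and 3 higher. The same fit called 9.29% of all genes with BimS (3.86% lower and 5.43% higher) and 12.2% with RIPK3 debris (5.73% and 6.51%) in cDC1s, and 11.2% (5.43% and 5.8%) and 11% (5.03% and 6%) in cDC2s. The scaling also moved the split of the calls over all genes. Of those against WT medium, 55.4% and 50.5% were higher in cDC1s and 54.3% and 54.5% in cDC2s with BimS and RIPK3 debris, whereas it was 36.5%, 31.2%, 31.8% and 33% with limma on the deposited normalized table and 50.9%, 27.9%, 42.1% and 22.8% with limma on unscaled log2 counts.

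**Figure D2:**
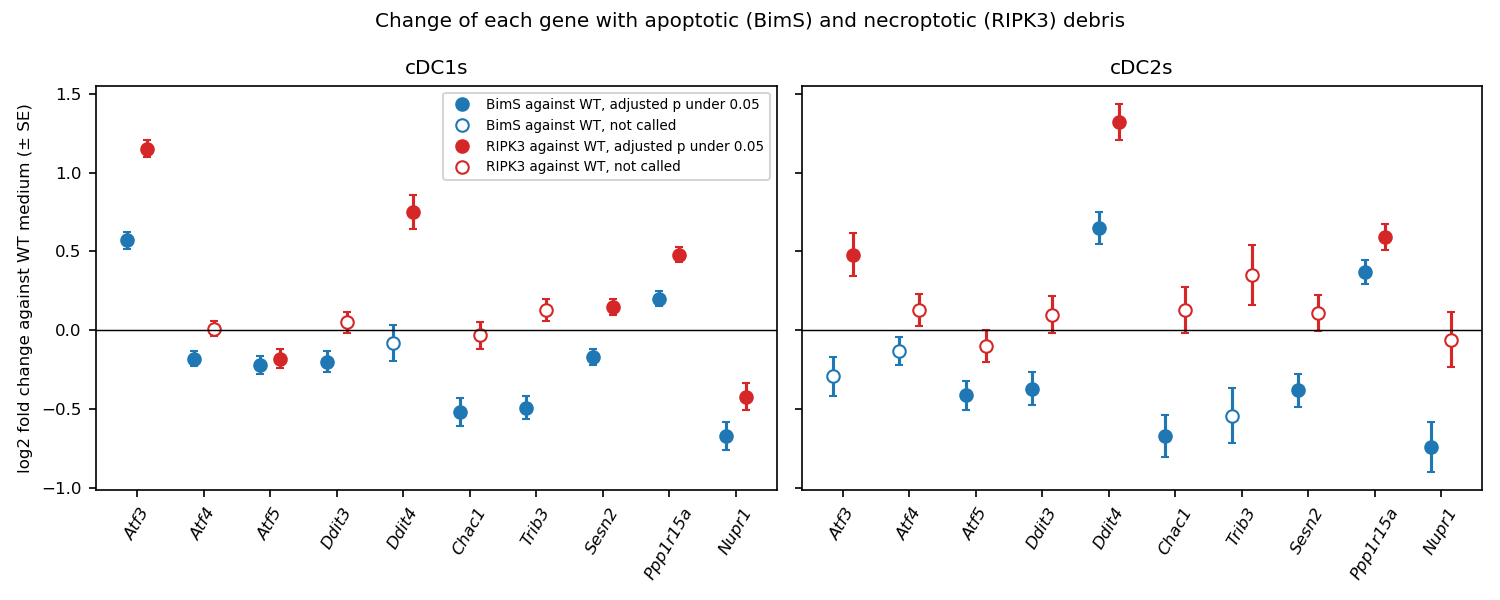
Log2 fold change against WT medium (y axis, ± SE) of each gene (x axis) with BimS and with RIPK3 debris, in cDC1s and cDC2s, where filled points passed an adjusted p under 0.05. Chac1 fell with BimS debris in both cell types (-0.52 and -0.67) and was at -0.03 and 0.13 with RIPK3 debris.

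Atf4, the central transcription factor, was the most abundant of the set and moved little. Its level in cDC1s was 679, 680 and 673 CPM with WT, 585, 597 and 611 with BimS and 648, 671 and 730 with RIPK3 medium. The BimS samples thus lay below the others without overlap. The log2 fold change with BimS debris was -0.18 (SE 0.0464, adjusted p = 0.00558), a fall to 0.882 of the WT level. The call was lost with limma on unscaled log2 counts (0.196). With RIPK3 debris the value was 0.01 (adjusted p = 0.924). In cDC2s the level ranged from 577 to 737 CPM with WT and from 557 to 651 CPM with BimS medium, and was 695 and 749 CPM with RIPK3 medium. The ranges overlapped, and neither change was called (-0.13 and 0.13, adjusted p = 0.516 and 0.567). With the replicate block both were, at -0.12 with BimS (0.0107) and 0.20 with RIPK3 debris (0.000126).

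Atf5, a relative of ATF4 that is itself controlled by translation, was lower with BimS debris in both cell types. It averaged 75 ± 5.35 CPM (SD, n = 3) in cDC1s with WT, 64.5 ± 2.41 with BimS and 66.4 ± 3.28 with RIPK3 medium, a log2 fold change of -0.22 with BimS (adjusted p = 0.00898) and -0.18 with RIPK3 debris (0.0351). In cDC2s it averaged 92.6 ± 11 CPM with WT and 69.6 ± 4.04 with BimS medium, which is -0.41 on the log2 scale (SE 0.0918, adjusted p = 0.00694), and the groups did not overlap. With RIPK3 medium its level was 86 and 88.2 CPM (-0.10, adjusted p = 0.707). The call in cDC1s with BimS debris was lost without WT replicate 1 (0.145) and with limma on unscaled log2 counts (0.154), and the one with RIPK3 debris without WT replicate 1 (0.306) or RIPK3 replicate 1 or 2 (0.146 and 0.0717), with DESeq2 (0.0663) and with limma on log2 CPM (0.054). In cDC2s the call was lost without WT replicate 2 (0.0569) or BimS replicate 1 (0.056).

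Atf3, a stress-induced repressor that ATF4 and other signals switch on, showed the largest rise in cDC1s. Its 3 samples with WT medium held 71.5, 74.4 and 71.2 CPM, those with BimS medium 107, 108 and 107 CPM, and those with RIPK3 medium 148, 169 and 166 CPM. No sample overlapped between the media. The log2 fold change was 0.57 (SE 0.0545, adjusted p = 3.12e-10) with BimS and 1.15 (SE 0.0539, adjusted p = 1.37e-18) with RIPK3 debris, 1.48-fold and 2.23-fold of the WT level. In cDC2s the level was 24.9, 27.7 and 24.9 CPM with WT, 16.7, 23.1 and 23.7 with BimS and 33.4 and 39 with RIPK3 medium. There the BimS samples were the lowest and the RIPK3 samples the highest, again without overlap. The rise with RIPK3 debris passed the test (log2 fold change 0.48, SE 0.134, adjusted p = 0.0307) and the value with BimS debris did not (-0.29, adjusted p = 0.206), though it did with the replicate block (-0.29, adjusted p = 0.000767). The call of 0.48 was lost without WT replicate 1 (0.0649) or 2 (0.0589), without RIPK3 replicate 1 (0.0783) or 2 (0.378), and with limma on log2 CPM (0.0629) or on the deposited normalized table (0.37, adjusted p = 0.127). With limma on unscaled log2 counts the value was 0.30 (adjusted p = 0.301).

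Ddit3, which encodes the pro-apoptotic factor CHOP, was lower with BimS debris by a small margin. Its levels in cDC1s were 34.1 to 34.3 CPM with WT, 28.7 to 31.2 with BimS and 34.6 to 36.2 with RIPK3 medium. The log2 fold changes were -0.20 (SE 0.066, adjusted p = 0.0404) and 0.05 (adjusted p = 0.728). In cDC2s the gene fell by 0.37 on the log2 scale with BimS debris (adjusted p = 0.0378), from 38.2 ± 5.3 to 29.6 ± 2.64 CPM, and was at 41.5 and 40.9 CPM with RIPK3 medium (0.10, adjusted p = 0.726). Both calls were close to the threshold. The first was lost with DESeq2 (0.0617), without the filter on low genes (0.0537) and without any of WT replicates 1 to 3 or BimS replicates 1 and 2 (0.103 to 0.162), and the second without WT replicate 2 or 3, BimS replicate 1 or 2, or either RIPK3 sample (0.0707 to 0.185). Limma on unscaled log2 counts lost both (0.26 and 0.0526), and limma on log2 CPM the second (0.0578). Exons of other genes, among them Gm4189 and Mars1 on the other strand, cover 82.4% of the exonic bases of Ddit3, so its counts are less certain than those of the other members. This share was 21.8% for Nupr1, 8.36% for Atf5, 0.409% for Ppp1r15a and 0 for the other members.

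Ddit4 encodes REDD1, an inhibitor of the growth kinase mTORC1 that is induced by energy stress, hypoxia and glucocorticoids as well as by ATF4. In cDC1s it was a low gene, with 9.76, 7.94 and 8.26 CPM with WT, 8.91, 8.09 and 7.63 with BimS and 15, 15 and 13.5 with RIPK3 medium. WT and BimS samples overlapped, and the RIPK3 samples lay above both. The log2 fold change was -0.08 (SE 0.114, adjusted p = 0.792) with BimS and 0.75 (SE 0.107, adjusted p = 1.27e-06) with RIPK3 debris. In cDC2s the levels were 40.1, 36.4 and 48.9 CPM with WT, 65.5, 61.1 and 70.4 with BimS and 110 and 99.7 with RIPK3 medium. These 3 groups did not overlap, and Ddit4 rose with both kinds of debris there, by 0.65 (SE 0.102, adjusted p = 0.000268) and 1.32 (SE 0.112, adjusted p = 1.34e-07), to 1.57-fold and 2.49-fold of the WT level.

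Sesn2 encodes sestrin 2, which restrains mTORC1 when leucine is short. Its level in cDC1s was 147 to 153 CPM with WT, 128 to 139 with BimS and 157 to 176 with RIPK3 medium, in 3 ranges that did not overlap. The changes were small, at -0.17 (adjusted p = 0.018) and 0.15 (adjusted p = 0.0374) on the log2 scale. In cDC2s it fell with BimS debris from 91.2 ± 9.37 to 70.1 ± 8.18 CPM (-0.38, adjusted p = 0.0291), and was at 90.1 and 108 CPM with RIPK3 medium (0.11, adjusted p = 0.714). The fall in cDC1s was lost without WT replicate 1 or 2 or BimS replicate 1 or 3 (0.0645 to 0.0997). The rise there was lost without any one WT sample, BimS replicate 3, or RIPK3 replicate 2 or 3 (0.0509 to 0.158), with limma on log2 CPM (0.0519), on the deposited normalized table (0.07, adjusted p = 0.431) and on unscaled log2 counts (0.03, adjusted p = 0.901). The last also lost the fall in cDC1s (0.256). Lost too was the fall in cDC2s without WT replicate 2 or 3 or BimS replicate 1 (0.0666 to 0.191).

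Chac1, whose enzyme degrades glutathione, was lower with BimS debris in both cell types and near its WT level with RIPK3 debris. The cDC1 samples held 21.3, 26.9 and 23.4 CPM with WT, 15.1, 18.2 and 16.4 with BimS and 23.1, 22.4 and 24.5 with RIPK3 medium. The BimS samples lay below the others, while WT and RIPK3 samples overlapped. The log2 fold change with BimS debris was -0.52 (SE 0.0886, adjusted p = 3.34e-05), and with RIPK3 debris it was -0.03 (SE 0.0859, adjusted p = 0.875). In cDC2s the levels were 12.6, 15.4 and 14.4 CPM with WT, 7.91, 9.56 and 9.07 with BimS and 13.6 and 17.5 with RIPK3 medium. The pattern was the same, with -0.67 (SE 0.134, adjusted p = 0.00273) for BimS and 0.13 (SE 0.144, adjusted p = 0.717) for RIPK3 debris. Chac1 was thus higher with RIPK3 than with BimS debris without having passed the test against WT medium.

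Trib3, a pseudokinase that is induced by ATF4 and CHOP and feeds back on them, followed a similar course. Its levels in cDC1s were 45.2, 53.4 and 48.8 CPM with WT, 32.9, 37.7 and 34.3 with BimS and 48.2, 55.7 and 57 with RIPK3 medium. The fall with BimS debris was 0.49 on the log2 scale (-0.49, SE 0.0724, adjusted p = 4.74e-06), with no overlap with WT, and the value with RIPK3 debris was 0.13 (adjusted p = 0.271). In cDC2s the levels were 28.1, 40.4 and 37.9 CPM with WT, 19.2, 28.6 and 25 with BimS and 39.3 and 51.5 with RIPK3 medium. WT and BimS samples overlapped there, with replicate 1 the lowest in each medium. Neither the -0.54 (SE 0.175, adjusted p = 0.104) nor the 0.35 (SE 0.191, adjusted p = 0.382) was called. With the replicate block both passed, at -0.55 (4.96e-14) and 0.39 (4.58e-06), and without the block the first was called with DESeq2 (0.016), with no filter on low genes (4.42e-05), with limma on unscaled log2 counts (0.00115) or on the deposited normalized table (0.0286), in 1 fit over all samples (0.0324), and without WT replicate 1 (0.0117) or BimS replicate 2 (0.0449). The second was called without the block with no filter (0.0285).

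Nupr1, a small stress-induced chromatin protein, had the lowest fold change of the set with BimS debris in both cell types. Its cDC1 samples held 22.3, 19.2 and 22.3 CPM with WT, 13.6, 14 and 12.4 with BimS and 16.1, 15.6 and 16.2 with RIPK3 medium. Both debris groups lay below the WT samples, by -0.67 (SE 0.0881, adjusted p = 2.98e-07) with BimS and -0.42 (SE 0.0867, adjusted p = 0.000445) with RIPK3 debris. In cDC2s the levels were 44.7, 58.6 and 63 CPM with WT, 26.3, 34.6 and 38.9 with BimS and 47.5 and 59.1 with RIPK3 medium. There the fall with BimS debris was 0.74 on the log2 scale (-0.74, SE 0.158, adjusted p = 0.0151), and the RIPK3 samples lay among the WT samples (-0.06, adjusted p = 0.915). The call in cDC2s was lost without WT replicate 2 (0.0517) or 3 (0.0821).

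Ppp1r15a encodes GADD34, the phosphatase subunit that reverses eIF2 phosphorylation and ends the response. By edgeR it was the one member called higher in all 4 comparisons with WT medium. The cDC1 samples held 134, 135 and 132 CPM with WT, 158, 152 and 152 with BimS and 190, 187 and 182 with RIPK3 medium. In cDC2s they held 173, 166 and 171 CPM with WT, 227, 211 and 222 with BimS and 266 and 248 with RIPK3 medium. In both cell types the order was WT, BimS, RIPK3 without overlap. The rises in cDC1s were 0.20 (SE 0.0481, adjusted p = 0.00246) and 0.48 (SE 0.0479, adjusted p = 7.23e-10) on the log2 scale, the first of which missed the threshold with limma on the deposited normalized table (0.14, adjusted p = 0.052). With limma on unscaled log2 counts, the calls were lost for BimS debris in cDC1s (0.446) and for BimS (0.209) and RIPK3 debris (0.0605) in cDC2s. By edgeR the rises in cDC2s were 0.37 (SE 0.0752, adjusted p = 0.00322) and 0.59 (SE 0.0839, adjusted p = 6.94e-05).

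Atf3 responded more in cDC1s and Ddit4 more in cDC2s. The difference between the responses of the cell types was tested itself, in a fit that did not pair the samples by replicate number. For BimS debris it was called for 2 of the 10 members, beside 0.87% of all genes (0.561% with the higher response in cDC1s and 0.309% with the lower). The response of Atf3 was higher in cDC1s by 0.85 on the log2 scale (SE 0.13, adjusted p = 0.000308) and that of Ddit4 lower there by -0.72 (SE 0.151, adjusted p = 0.0107). For RIPK3 debris 1 of the 10 was called, beside 1.14% of genes (0.66% higher and 0.477% lower in cDC1s), namely Atf3 at 0.67 (SE 0.135, adjusted p = 0.00732). Ddit4 had -0.58 (SE 0.151, adjusted p = 0.0571) and was called with the replicate block (-0.60, 0.00559), with DESeq2 (-0.59, 0.0258), with RLE scaling (-0.59, 0.0473), with no filter (-0.56, 0.00846), and without WT replicate 3 (-0.71, 0.00209) or BimS replicate 3 (-0.58, 0.0465) of the cDC2s. The call of Ddit4 for BimS debris was lost without WT replicate 1 (0.0735) or BimS replicate 3 (0.0546) of the cDC1s, and that of Atf3 for RIPK3 debris without RIPK3 replicate 1 of the cDC2s (0.56, adjusted p = 0.11). Limma on unscaled log2 counts lost the call of Ddit4 for BimS (0.119) and that of Atf3 for RIPK3 debris (0.077). The other members ranged from -0.17 to 0.20 for BimS and from -0.36 to 0.04 for RIPK3 debris. Chac1, at 0.15 (SE 0.161) and -0.18 (SE 0.165), was among those whose responses were not shown to differ between cell types.

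**Figure D3:**
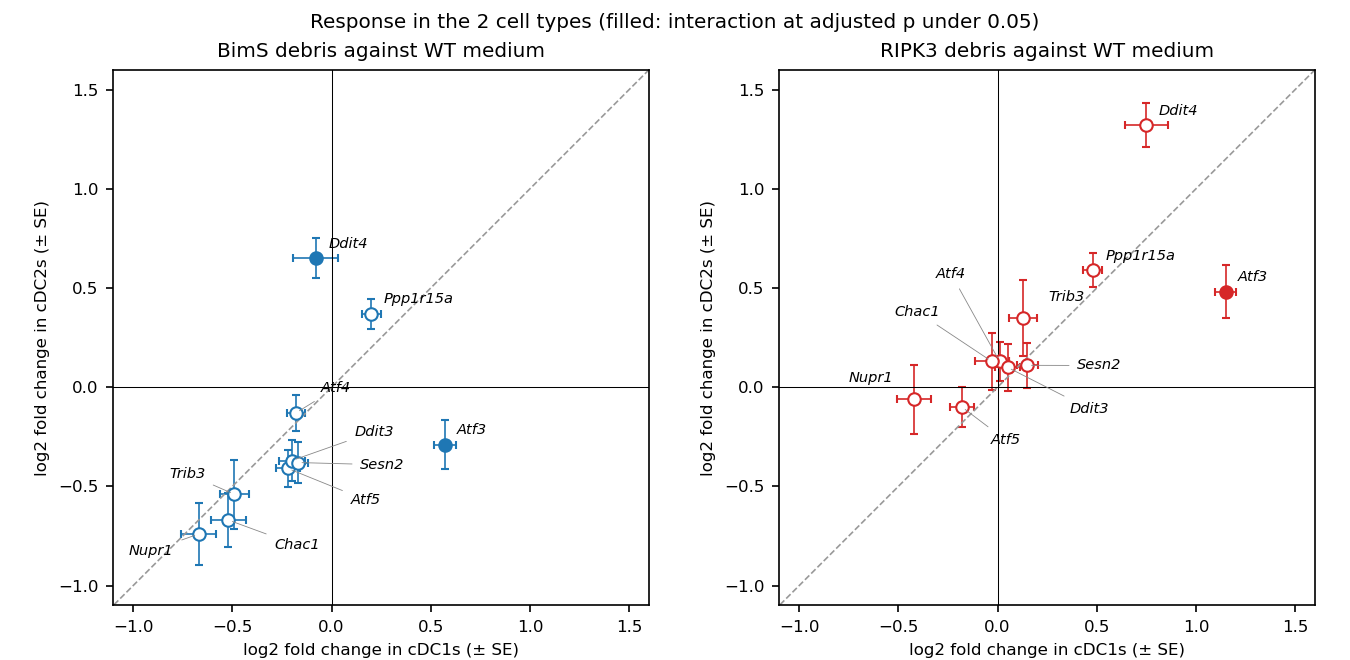
Log2 fold change against WT medium in cDC2s (y axis, ± SE) against that in cDC1s (x axis, ± SE) for each gene, with BimS debris on the left and RIPK3 debris on the right, where filled points passed the test of the difference between cell types and the dashed line marks equal responses. Atf3 lies below the line and Ddit4 above it in both panels, and most other genes lie close to it.

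Set against each other, RIPK3 and BimS debris gave higher fitted levels of each of the 10 genes with RIPK3 debris, in cDC1s and in cDC2s, except that Atf5 in cDC1s was at -0.04 on log2 counts without library scaling. This is the contrast the members were chosen with, in which 4.15% of all genes were called in cDC1s and 0.379% in cDC2s, and nothing is read from it here. The log2 difference in cDC1s was highest for Ddit4 (0.82, SE 0.109), followed by Trib3 (0.61), Atf3 (0.59), Chac1 (0.49) and Sesn2 (0.33), and lowest for Atf5 (0.04, SE 0.06). Ppp1r15a (0.28), Nupr1 (0.26), Ddit3 (0.25) and Atf4 (0.19) lay between. In cDC2s it was highest for Trib3 (0.89, SE 0.194), Chac1 (0.81, SE 0.149), Atf3 (0.77, SE 0.135), Ddit4 (0.67) and Nupr1 (0.67), and lowest for Ppp1r15a (0.22, SE 0.0838) and Atf4 (0.25). For Atf3, Ddit4 and Ppp1r15a the RIPK3 level was also above the WT level in both cell types by the tests given above, some of which were lost in the runs named there. None of the other members was called higher in both cell types, and Nupr1 and Atf5 were called lower in cDC1s.

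Other genes of the pathway were read from lists, given as counts beside the background shares above. With the replicate block, whose list counts are given where they differ most, those shares were 9.36% higher and 8.51% lower with BimS and 10.3% and 10.7% with RIPK3 debris in cDC1s, and 11% and 10.3% and 10% and 11.4% in cDC2s. Of 21 genes of the eIF2 kinases and eIF2 machinery, 1 was higher and 2 lower with BimS debris in cDC1s (median log2 fold change -0.05, beside 0.00 over all genes tested), and 2 higher and 3 lower with RIPK3 debris (-0.04, beside -0.01). In cDC2s it was 1 higher and 1 lower (-0.06) and 1 higher and 2 lower (-0.09), beside -0.02 over all genes in both. With the block it was 1 higher and 4 lower and 2 and 4 in cDC1s, and 1 and 5 and 3 and 5 in cDC2s. Among the kinases, Eif2ak2 (PKR, which senses double-stranded RNA and is itself interferon-induced) fell in all 4 comparisons, by -0.75 (SE 0.0626) and -1.11 (SE 0.0636) in cDC1s with BimS and RIPK3 debris and by -0.75 (SE 0.0999) and -1.27 (SE 0.114) in cDC2s. Eif2ak3 (PERK) fell slightly with RIPK3 debris in cDC1s (-0.19, adjusted p = 0.00421), while Eif2ak4 (GCN2) and Eif2ak1 (HRI) were not called in any of them. Impact, an inhibitor of GCN2 activation, rose in all 4, by 1.04 and 0.92 in cDC1s and 0.54 and 0.67 in cDC2s (highest adjusted p = 0.000296).

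Targets of ATF4 outside the set were counted in 3 lists. Of 19 genes of amino acid synthesis and transport, 4 were higher and 2 lower with BimS debris in cDC1s (median -0.02), and 6 higher and 0 lower with RIPK3 debris (0.13). In cDC2s, where 18 were tested, the counts were 3 and 1 (-0.14) with BimS and 4 and 0 (0.13) with RIPK3 debris, but 3 higher and 9 lower with BimS debris under the replicate block. Slc7a11, the cystine transporter, rose in cDC1s with BimS (1.39, SE 0.0693) and with RIPK3 debris (SE 0.0693, adjusted p = 1.81e-10) and also rose in cDC2s (0.76 and 0.60), and the glycine transporter Slc6a9 rose in cDC1s (0.38 and 0.62) and in cDC2s (0.90 and 1.02). The leucine transporter Slc7a5 fell with BimS debris in both (-0.28 and -0.52) and was at -0.14 (adjusted p = 0.0507) and -0.01 with RIPK3 debris. Of 13 tRNA synthetases and tRNA export genes 2 and 4 were higher in cDC1s with BimS and RIPK3 debris and 0 and 2 in cDC2s, with 0 lower in each (medians 0.03 and 0.09, and -0.08 and 0.14). The block gave 3 higher and 6 lower with BimS and 6 higher and 0 lower with RIPK3 debris in cDC2s, and 6 higher with RIPK3 debris in cDC1s. Nars1 rose with RIPK3 debris in both cell types (0.44 and 0.36) and with BimS debris in cDC1s (0.25).

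Another list held further ATF4 targets, of which 16 of 18 were tested. It gave 5 higher and 3 lower with BimS debris in cDC1s (median 0.17) and 8 higher and 1 lower with RIPK3 debris (0.41), and in cDC2s 3 and 1 (-0.11) and 5 and 0 (0.17), or 5 and 3 and 9 and 0 with the block. Cebpb, a partner of ATF4 on CARE sites, rose in all 4 comparisons (1.36 and 1.75 in cDC1s, 1.48 and 1.84 in cDC2s). Sqstm1, the autophagy receptor p62, rose with either debris (0.78 and 0.76 in cDC1s, 0.52 and 0.56 in cDC2s). Pck2, the mitochondrial enzyme of gluconeogenesis, fell with BimS debris in both (-0.34 and -0.40) and was at -0.06 and 0.14 with RIPK3 debris (not called). The AP-1 repressor Jdp2 rose in cDC1s with both kinds of debris (0.29 and 0.33) and with RIPK3 debris in cDC2s (0.82, SE 0.0965), the last more than in cDC1s by the test of the difference (-0.50, adjusted p = 0.00756). Between RIPK3 and BimS debris in cDC1s, 4, 2 and 3 genes of these lists were higher and 0 lower, beside 1.94% and 2.21% of all genes, among them Slc1a4 (0.39), Pck2 (0.28), Cebpg (0.26), Gpt2 (0.25), Nars1 (0.20) and Gars1 (0.18). In cDC2s it was 0, 0 and 2 higher and 0 lower, beside 0.161% and 0.218%, with Jdp2 at 0.57, while the block gave 9, 9 and 6 higher and 1, 0 and 1 lower there, beside 5.92% and 8.4% of all genes. In cDC1s the block gave 9, 4 and 3 higher and 0 lower, beside 4.07% and 4.79%. These counts come from the contrast by which Atf3, Ddit4 and Chac1 were picked, and the lists were chosen with earlier results known. They are a description and no independent support for that contrast.

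Neighbouring stress pathways were counted in the same way. Of 20 genes of the XBP1 and ATF6 arms of the unfolded protein response, 9 were higher in cDC1s with each kind of debris and 1 and 2 lower with BimS and RIPK3, with medians of 0.13 and 0.14. The chaperone genes Creld2 (0.36 and 0.28) and Pdia4 (0.26 and 0.24) led them, and Atf6 itself fell (-0.27 in both). In cDC2s edgeR called 0 of 20 with either debris at similar medians (0.14 and 0.12), whereas the fit with the replicate block called 10 higher and 2 lower with BimS and 11 higher and 1 lower with RIPK3 debris. Responses to glucocorticoids, hypoxia and p53 were included because they also act on Ddit4, Sesn2 or Atf3. Of 10 glucocorticoid-responsive genes 3 were higher and 1 lower with BimS and 4 higher and 0 lower with RIPK3 debris in cDC1s (medians 0.04 and 0.27), and 2 and 3 were higher and 0 lower in cDC2s (0.28 and 0.26), or 5 higher and 1 lower and 5 higher and 0 lower with the block. Tsc22d3, which encodes the glucocorticoid-induced leucine zipper, fell with BimS debris in cDC1s (-0.50, adjusted p = 8.19e-08) and was at 0.07 with RIPK3 debris there and at -0.20 and 0.34 in cDC2s, none of which was called. Sgk1 rose in all 4 (0.72 and 1.08 in cDC1s, 1.96 and 2.10 in cDC2s), and Per1 rose with RIPK3 debris (0.71 and 1.10) and, in cDC1s, with BimS debris (0.23).

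Of 13 hypoxia-responsive genes, 1 and 3 were higher and 2 and 2 lower in cDC1s with BimS and RIPK3 debris, and 3 and 5 were higher and 0 lower in cDC2s (medians -0.01, -0.07, 0.19 and 0.11), where the block gave 4 and 5 higher and 1 and 2 lower. The responses of Pfkfb3, a regulator of glycolysis, and Vegfa were higher in cDC2s than in cDC1s by the test of the difference, with -0.93 and -0.69 for BimS and -1.07 and -0.68 for RIPK3 debris (highest adjusted p = 7.43e-05). Of the p53-responsive genes, 11 of 12 were tested in cDC1s and 12 in cDC2s. In cDC1s 3 were higher and 2 lower with BimS and 4 higher and 3 lower with RIPK3 debris, and in cDC2s it was 2 and 2 and 3 and 2 (medians 0.01, -0.12, -0.04 and -0.15), or 4 and 5 and 4 and 5 with the block. Trp53inp1 rose in all 4 (0.90, 0.95, 0.76 and 0.64) and Bbc3, which encodes the BH3-only protein PUMA, fell in all 4 (-0.58, -0.45, -0.67 and -0.46).

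**Figure D4:**
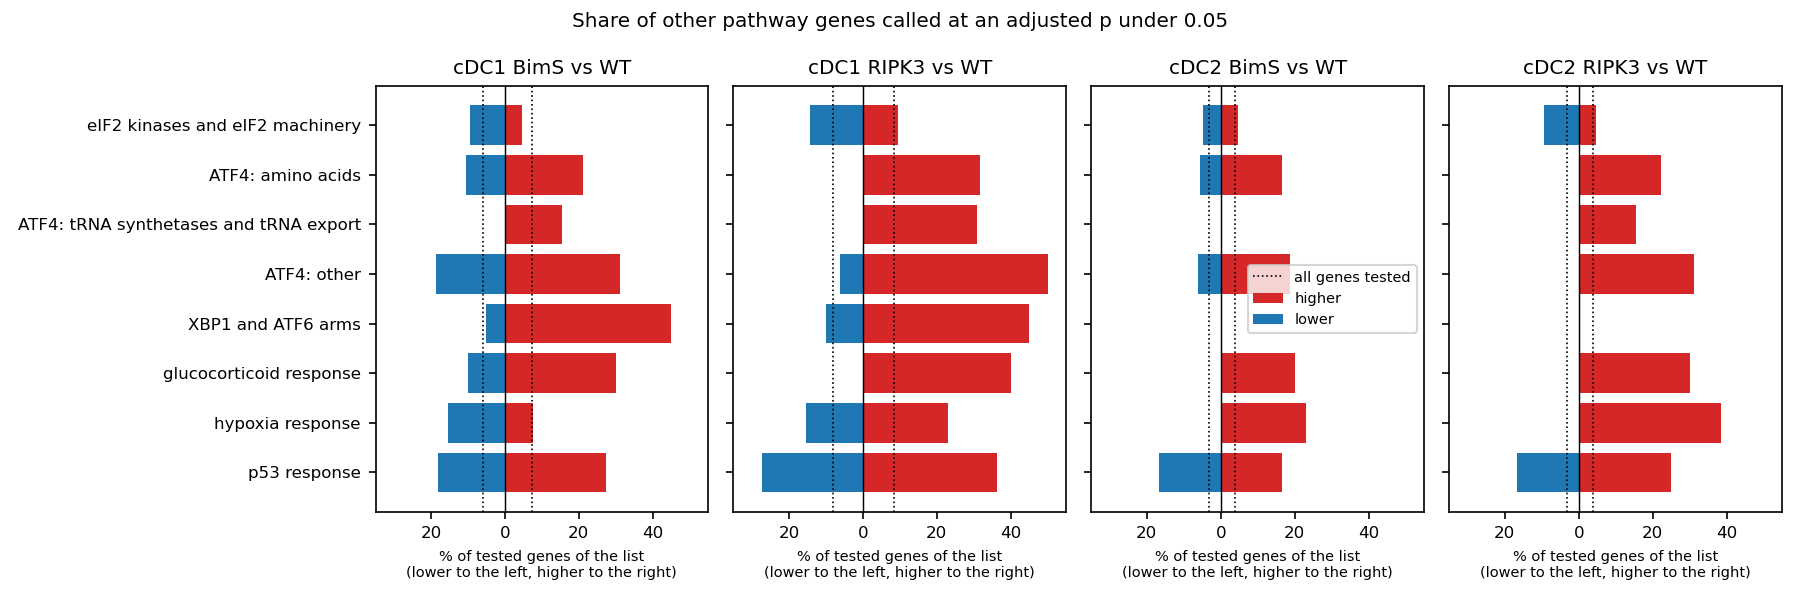
Share of the tested genes of each list (y axis) that were called higher (right of 0) or lower (left of 0) against WT medium, in percent (x axis), in the 4 comparisons, with dotted lines at the shares over all genes tested. The ATF4 target lists extend further to the right with RIPK3 than with BimS debris in both cell types, and the XBP1 and ATF6 list has no bar in cDC2s.

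The patterns of Atf3, Ddit4 and Chac1 over the 6 groups were compared with those of 7783 genes by the root mean square difference of centred group means, on the log2 CPM scale. Nearest to Atf3 were Phc2 (0.243), Hmgn3 (0.243) and Synpo (0.249), and nearest to Ddit4 were Gprc5a (0.156), Emb (0.253) and Osm (0.256). Nearest to Chac1 were Snhg1 (0.109), Cyb5r1 (0.115) and Snhg6 (0.13), and within the set Sesn2 (0.143) and Trib3 (0.18). Its centred profile ran from -0.86 to 0.56, against -1.36 to 1.58 for Atf3 and -1.64 to 2.02 for Ddit4. The distance was not scaled for this span, so its smaller values for Chac1 do not show a closer match. Atf3 and Ddit4 were far apart (2.37), and the member nearest to Ddit4 was Nupr1 (0.839). These distances describe 6 group means and carry no test.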

How the data were processed

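Polyadenylated RNA of 17 samples was sequenced as paired-end reads. Trimming (SeqPurge), alignment to GRCm39 with Ensembl models (STAR 2.7.10a) and counting per gene (gensum) were done by the authors, and the deposited counts are raw. A second deposited table has log2 values scaled to 10 M counts per sample by the authors, and it served as an alternative alone. Of 31239 lines, 148 without identifier (0.0258 to 0.0366% of counts) were left out, and 30854 of 31091 identifiers were matched to GENCODE M39. Whether counting used strand is not given in the sources used here.

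Differential expression was tested in R 4.3.3 by the robust quasi-likelihood test of edgeR 4.0.16 with TMM scaling, on genes detected in at least 50% of a fit's samples. Each cell type was fitted alone for the media, and all samples for cDC1s against cDC2s and for differences between responses. Adjustment followed Benjamini and Hochberg across every gene tested, at 0.05, and an adjusted p for which no tool is named comes from edgeR. CPM are scaled by TMM, and CPM per kb divide by the length of the main transcript. The scripts were tested on simulated data.

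The 10 members, the pathway lists, the marker lists and the motifs were chosen with earlier results of these data known. From each list and comparison, the 2 called genes with the largest rise and the 2 with the largest fall (mean log2 CPM of at least 3) and each eIF2 kinase could be named, and the text names a selection of these. Promoter windows were read from the GRCm39 genome at start sites of GENCODE M39, and windows that overlap exons are not printed whole.

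Replicate numbers come from the labels. After removal of group means, 16 of 16 same-numbered pairs within a cell type correlated above 0.1 (lowest 0.148, median 0.355), against 4 of 32 pairs with other numbers, so the numbers were taken to pair the samples. Across cell types 19 of 24 same-numbered pairs correlated above 0.1 (median 0.21), against 5 of 48 with other numbers. The main fits did not use this pairing, within or across cell types, and the replicate block is given as an alternative. Alternatives were DESeq2 1.42.0, RLE scaling, filterByExpr or no filter on low genes, limma 3.58.1 on log2 counts (pseudocount 1) without library scaling, on log2 CPM (prior count 2) and on the deposited normalized table, a replicate block, 1 fit over all samples, and leaving out each of the 17 samples in turn.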

Additional observations from a re-analysis of the deposited data

Results flagged for a closer look

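The response to debris differed between cDC1s and cDC2s for 3 of the results, by a test of the difference itself. For BimS debris it was higher in cDC1s for Atf3, by 0.85 on the log2 scale, and lower in cDC1s for Ddit4, by -0.72. For RIPK3 debris it was higher in cDC1s for Atf3, by 0.67.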

How the results depend on the processing

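Directions of the called members held under every alternative run. Of the 10 members, the number called against WT medium in cDC1s was 9 with BimS and 6 with RIPK3 debris, and it was 5 and 3 with all 17 samples in 1 fit and, for BimS, 4 with limma on unscaled log2 counts. These fits called 9.29% and 12.2% of all genes in 1 fit and 7.74% with unscaled limma, against 13.2% and 16.5%. In cDC2s it was 7 (5 lower and 2 higher) and 3. For BimS debris it was 10 with the replicate block (8 lower and 2 higher), and for RIPK3 debris 1 with limma on unscaled counts and 5 with the replicate block. The block called 21.3% of all genes with BimS and 21.4% with RIPK3 debris there, against 7.01% and 7.21%. Unscaled limma called 8.32% with RIPK3 debris. The number whose response differed between cell types was 2 for BimS debris, or 1 with limma on unscaled counts. For RIPK3 debris it was 1, or 2 with DESeq2, RLE scaling, no filter or the replicate block, and 0 with limma on unscaled counts. Over all genes the share was 0.87% for BimS and 1.14% for RIPK3 debris. With limma on unscaled counts it was 0.351% and 0.571%, and with the block 2.32% and 2.35%. Apart from the calls given above, the block changed no other call of a member.

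Leaving out each sample in turn gave 6 to 9 and 4 to 6 called members in cDC1s, 3 (without WT replicate 2) to 8 and 2 to 3 in cDC2s, and 1 to 2 and 0 to 2 for the difference between responses. Among log2 values that did not pass the test, the sign also changed. With limma on unscaled counts, Atf4 and Ddit3 with RIPK3 debris were at -0.11 and -0.07 in cDC1s and at -0.04 and -0.06 in cDC2s, where Chac1 and Sesn2 were at -0.05 and -0.07. On the deposited normalized table Atf4 and Ddit3 were at -0.07 and -0.03 in cDC1s. Nupr1 with RIPK3 debris in cDC2s was at 0.05 with the block, and Ddit3 between cell types with WT medium at 0.01 with limma on unscaled counts. With limma on unscaled counts the median over genes with a mean log2 CPM of at least 3 was as low as -0.18 (RIPK3 debris in cDC2s), against -0.01 with edgeR.

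Without 1 sample, the value against WT medium ranged from -0.14 to 0.02 for Ddit4 with BimS, from -0.04 to 0.05 for Atf4 with RIPK3 and from -0.11 to 0.06 for Chac1 with RIPK3 debris in cDC1s. In cDC2s with RIPK3 debris it ranged from -0.06 to 0.30 for Chac1, from -0.02 to 0.23 for Sesn2 and from -0.23 to 0.09 for Nupr1. The difference between responses ranged from -0.15 to 0.02 for Atf4, from -0.09 to 0.19 for Trib3 and from -0.08 to 0.19 for Nupr1 with BimS debris. With RIPK3 debris it ranged from -0.17 to 0.03 for Ddit3, from -0.34 to 0.02 for Chac1 and from -0.09 to 0.17 for Sesn2, and between cell types with WT medium Atf4 ranged from -0.03 to 0.14.

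The number of all genes called varied more. In cDC2s the replicate block raised it from 1349 to 4103 with BimS and from 1387 to 4126 with RIPK3 debris, and 1 fit over all samples gave 2143 and 2104. In cDC1s 1 fit gave 1773 with BimS and 2336 with RIPK3 debris, against 2576 and 3226. The count in cDC2s fell to 783 with BimS debris without WT replicate 2, to 896 and 878 without BimS replicate 1 and 2, and to 916, 658 and 622 with RIPK3 debris without WT replicate 2, RIPK3 replicate 1 and RIPK3 replicate 2. In cDC1s it was 2576 with BimS debris, or 1510 with limma on unscaled counts. Between debris types it was 810 in cDC1s (403 with limma on unscaled counts, 1730 with the block, 269 in 1 fit, 489 without BimS replicate 3) and 73 in cDC2s (46 with filterByExpr, 141 with DESeq2, 148 with limma on unscaled counts, 244 in 1 fit, 300 with no filter, 2755 with the block), and the count in cDC2s ranged from 0 (without RIPK3 replicate 2) and 12 (without RIPK3 replicate 1) to 214 (without WT replicate 3). Without 1 RIPK3 sample the lone RIPK3 sample was assumed to vary like the other groups. The difference between responses was called for 166 genes with BimS and 217 with RIPK3 debris, for 67 and 109 with limma on unscaled counts, for 315 and 371 with no filter, for 443 and 449 with the block and, for BimS, for 261 with DESeq2. Without WT replicate 1, BimS replicate 1 or BimS replicate 3 of the cDC1s it was called for 93, 104 and 100 with BimS debris, and without RIPK3 replicate 2 of the cDC2s for 111 with RIPK3 debris. The cause of these changes was not tested. The group of cDC2s with RIPK3 medium has 2 samples, and the spread of counts beyond counting error, as edgeR's biological coefficient of variation, was 5.55% for cDC1s and 9.58% for cDC2s.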
